A study of Mus musculus with 9 samples.

Results

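The phagocyte NADPH oxidase subunit genes Cybb, Cyba, Ncf1, Ncf4, Rac1 and Rac2 were taken by symbol from an expression table of 55401 mouse genes, by a rule that names no measured value but was set with earlier results of these data known. All 6 had a mean level of at least 1 TPM (a length-corrected share of a sample's transcripts, scaled to the same total in every sample) and were among the 12819 genes tested. The table came from RNA-seq of RAW264.7, a macrophage line that the labels trace to Abelson murine leukemia virus-induced tumors of a male mouse and give as genotype WT. There were 3 groups with 3 columns each, numbered 5, 6 and 7, treated for 24 h according to the labels. The DMSO group received the solvent, the LPS group (labelled DMSO+LPS) received LPS, a bacterial wall component, in addition, and the LPS + Ska group (labelled LPS+Skatole) received LPS and skatole, an indole compound. The labels do not state that the samples came from separate cultures, so each p-value measured only the spread between these samples.

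The oxidase moves electrons from NADPH across a membrane to oxygen and so makes superoxide, with which phagocytes attack engulfed microbes. Its catalytic core is the membrane flavocytochrome of gp91phox, encoded by Cybb, and its partner p22phox, encoded by Cyba. In resting cells the core is silent, and activity requires cytosolic proteins, among them p47phox (Ncf1), and a Rac GTPase to join it. A further cytosolic subunit is p40phox (Ncf4).

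Column sums were 999895 to 1000145 TPM, and 12498 to 13012 genes per column had at least 1 TPM. With LPS, and likewise with LPS + Ska, the column numbered 5 equalled the mean of the other 2 columns within 0.0001 TPM in 17950 of 17950 and 17658 of 17658 genes with both above 0. In the DMSO group no column did so in more than 0.207% of genes. Each of the LPS and LPS + Ska groups therefore held at most 2 independent values per gene, and their SDs are those of the deposited columns. The 8 macrophage markers all passed the filter on low values. Their sum ran from 12020 to 12987 TPM with DMSO, from 7133 to 7549 TPM in the LPS group and from 13479 to 13700 TPM in the LPS + Ska group. Lyz2, which encodes lysozyme, held most of that sum, and its part in the results below was not tested. The markers did not all move alike. In LPS compared with DMSO, the log2 fold changes of Lyz2, Csf1r and Cd68 were -1.05, -0.67 and -0.35. Those of Adgre1, Ptprc, Itgam, Fcgr1 and Cd14 were -0.20, -0.19, -0.11, 0.15 and 0.23. In LPS + Ska compared with DMSO, the log2 fold changes of Lyz2, Cd14 and Itgam were 0.14, 0.77 and 0.28. Those of Csf1r, Cd68, Fcgr1, Adgre1 and Ptprc were -0.83, -0.47, -0.43, -0.28 and -0.04. Of the neutrophil markers, whose cells carry much of this oxidase, 5 of 8 were listed at 0 in every column, and the 8 summed to at most 3.55 TPM. Of the B cell markers 3 of 4, of the T cell markers 3 of 4 and of the fibroblast markers 1 of 4 were listed at 0 in every column, with sums of at most 0.672 TPM. The 5 LPS response genes summed to 69.3 to 125 TPM with DMSO, 637 to 664 TPM in the LPS group and 585 to 668 TPM in the LPS + Ska group. In LPS + Ska compared with LPS, the single genes did not move alike. Their log2 fold changes were -1.41 for Il1b, -0.39 for Nos2, -0.28 for Acod1, -0.02 for Tnf and 0.35 for Ptgs2. In bulk samples, fewer cells of a type and less RNA per cell cannot be told apart.

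The 6 genes lie on 4 chromosomes of the mm10 genome. Cybb (ENSMUSG00000015340) occupies chrX:9435252-9487771 on the minus strand, and Cyba (ENSMUSG00000006519) chr8:122424776-122432930 on the minus strand. Ncf1 (ENSMUSG00000015950) and Rac1 (ENSMUSG00000001847) are both on the minus strand of chromosome 5, at chr5:134220053-134229625 and chr5:143503634-143528036. Ncf4 (ENSMUSG00000071715) and Rac2 (ENSMUSG00000033220) are both on chromosome 15, on the plus strand at chr15:78244801-78262580 and the minus strand at chr15:78559167-78572783. Exons of Rac1 overlap those of Daglb on the opposite strand, and 50.3% of the 50-base words in the Rac1 transcripts occur in Daglb, which was listed at up to 31.2 TPM. Exons of Ncf1 overlap those of Gtf2ird2 in the same way, with 7.45% of its words found in other genes, chiefly Gtf2ird2, and a Gtf2ird2 level of up to 18.4 TPM. Whether strand was used when the reads were counted is not given in the sources used here, so the levels of Rac1 and Ncf1 are less certain than those of the other members. Between Rac1 and Rac2 themselves no 50-base word was shared.

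All 6 genes were highly expressed, between percentile 90.3 and percentile 98.8 of the 12819 tested genes by mean TPM in a group, and the order of their levels differed between groups. With DMSO, Cyba was highest, with 778 ± 29.6 TPM (SD, n = 3). Ncf1 and Cybb followed with 341 ± 4.21 and 335 ± 19.6 TPM, and their columns overlapped. Ncf4 (281 ± 19.1 TPM) came next, and Rac1 (245 ± 13.2 TPM) and Rac2 (227 ± 12.8 TPM), whose columns overlapped, were lowest. With LPS the Rac genes stood directly below Cyba, Cybb had moved to the lowest place, and the columns of no neighbouring genes overlapped. With LPS + Ska the order was Cyba, Rac1, Rac2, Cybb, Ncf1 and Ncf4, with overlap between Rac1 and Rac2 and between Cybb and Ncf1.

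**Figure D1:**
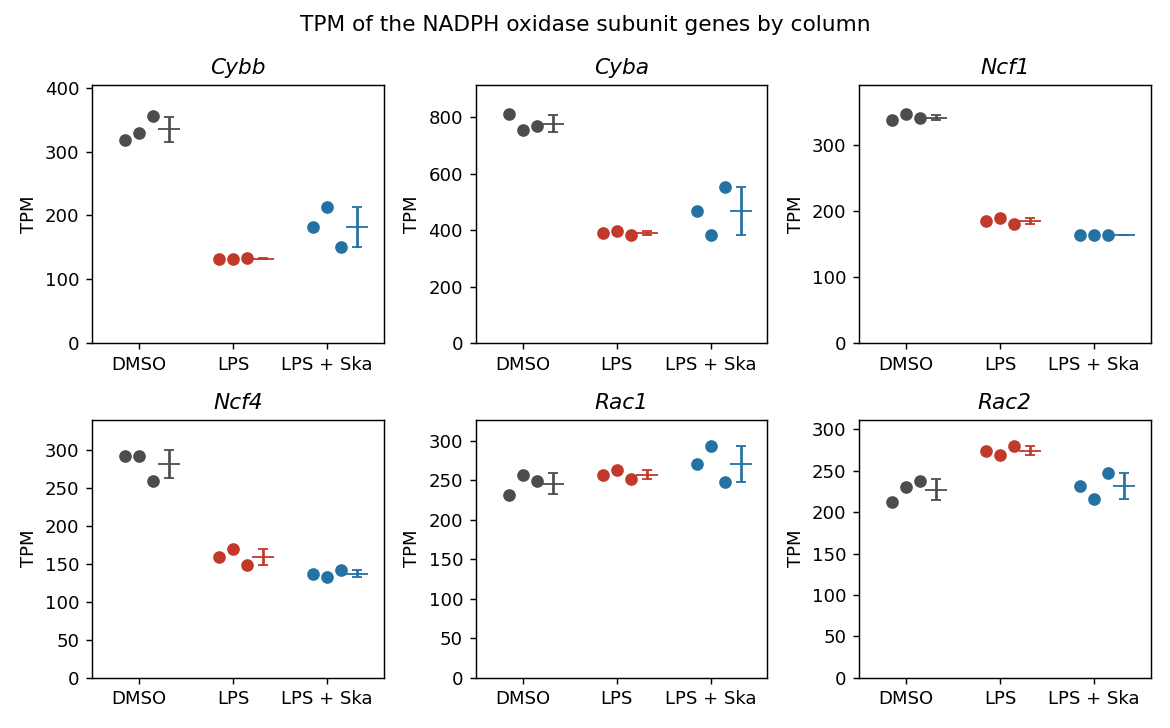
TPM (y axis, from 0) of each subunit gene in the 9 columns, with points for columns 5, 6 and 7 from left to right. Bars give the mean and SD (n = 3 deposited columns) of DMSO, LPS and LPS + Ska. Cybb, Cyba, Ncf1 and Ncf4 are lower with LPS than with DMSO in every column, whereas Rac1 overlaps between all groups.

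The sequences before the start sites of Cybb, Cyba and Ncf1 are shown because those of Cybb and Ncf1 hold matches to a paired motif of interferon regulatory factors and that of Cyba does not. The RefSeq promoter table of GRCm38.p6 gave a match for these 3 of the 6 genes, and the 250 bases before each start are printed 5′ to 3′ along the gene's strand. Capitals mark GAAANNGAAA on either strand, 2 copies of the short core that these factors bind.
Cybb, chrX:9469325-9469574, minus strand: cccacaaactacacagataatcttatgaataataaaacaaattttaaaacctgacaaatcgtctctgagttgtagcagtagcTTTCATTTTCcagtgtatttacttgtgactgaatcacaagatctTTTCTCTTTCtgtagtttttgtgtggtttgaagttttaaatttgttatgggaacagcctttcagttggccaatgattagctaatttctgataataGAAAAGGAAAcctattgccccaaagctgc
Ncf1, chr5:134229626-134229875, minus strand: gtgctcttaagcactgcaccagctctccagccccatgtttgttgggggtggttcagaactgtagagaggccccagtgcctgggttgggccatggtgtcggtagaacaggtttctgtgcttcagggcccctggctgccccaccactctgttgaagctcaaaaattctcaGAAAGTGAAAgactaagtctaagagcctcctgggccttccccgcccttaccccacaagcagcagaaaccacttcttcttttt
Cyba, chr8:122432941-122433190, minus strand: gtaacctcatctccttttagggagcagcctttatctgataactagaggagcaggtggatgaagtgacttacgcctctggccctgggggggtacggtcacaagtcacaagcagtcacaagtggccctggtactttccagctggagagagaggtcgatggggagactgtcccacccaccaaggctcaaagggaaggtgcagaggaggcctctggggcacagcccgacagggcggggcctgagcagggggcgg

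The Cybb window, which is 34.0% GC and lies inside the annotated span of the gene given above, held the paired motif at 3 places. They lay 168 to 159, 124 to 115 and 29 to 20 bases before the start. Among 32851 such windows of 27025 genes, 2.98% held the motif at least once. Only 4 windows, or 0.0122%, held it 3 times or more, a limit chosen after the Cybb count had been seen. The Ncf1 window (54.4% GC) held it once, at 82 to 73 bases before the start. The Cyba window (60.0% GC) did not hold it. None of the 3 windows held GAGGAA, the letters searched for as a PU.1 site, or an NF-kB site on either strand, which 23.3% and 5.93% of windows held. Shorter forms of the PU.1 site were not searched for, so their absence is not claimed. The Cybb window held CCAAT once, and 33.8% of windows held it at least once. A match is a description of letters, and a missing match says only that these letters are not in this window.

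The comparison of LPS with DMSO asks how these genes differed after a stimulus that drives macrophages to the inflammatory M1 state. The 4 genes for the membrane and cytosolic phox proteins fell, by 1.76-fold to 2.52-fold, and the Rac GTPase genes did not pass the call. A gene was called at a limma adjusted p below 0.05 together with a fold change above 1.5 or below 0.67 on the log2(TPM + 1) scale. By this rule 4 of 6 members were called lower, and 20.0% of all tested genes were. The limma fit took the tied columns as independent, so its p-values and intervals describe the columns as deposited. The median log2 fold change of the 6 was -0.85, and that of all tested genes was -0.067.

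Of the membrane subunits, Cybb, the catalytic chain, was 318, 330 and 356 TPM with DMSO and 132, 131 and 133 TPM with LPS. Every LPS column was below every DMSO column. Cybb fell by 1.33 on the log2 scale (SE 0.11, 95% interval -1.57 to -1.10, limma adjusted p = 7.46e-06), a 2.52-fold lower level. That log2 fold change lay at the 2.99th percentile of all tested genes. Cyba, whose product stabilises the catalytic chain and docks p47phox, was 811, 754 and 769 TPM with DMSO and 391, 398 and 383 TPM with LPS. These columns also did not overlap, and Cyba fell by 0.99 on the log2 scale (SE 0.11, limma adjusted p = 5.32e-05), or 1.99-fold.

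Of the cytosolic subunits, Ncf1, whose product p47phox organises the assembly, was 338, 346 and 340 TPM with DMSO and 185, 189 and 180 TPM with LPS. The columns were separate and tight within each group. Ncf1 fell by 0.88 (SE 0.04, limma adjusted p = 3.81e-07), or 1.84-fold. Ncf4 encodes p40phox, which binds phosphatidylinositol 3-phosphate on phagosomes. It was 292, 292 and 259 TPM with DMSO and 159, 170 and 148 TPM with LPS, again without overlap. Ncf4 fell by 0.82 (SE 0.07, limma adjusted p = 1.05e-05), or 1.76-fold. Each of these 4 calls was also made in all 9 fits that left out 1 column, and also when the 2 recovered values stood in for the 3 tied columns of each LPS-treated group.

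Rac1 and Rac2 encode small GTPases that take part in activating the oxidase, Rac1 in most cell types and Rac2 mainly in blood cells. Rac1 was 231, 257 and 249 TPM with DMSO and 257, 263 and 251 TPM with LPS, and the groups overlapped. The log2 fold change of Rac1 was 0.07 (SE 0.07, 95% interval -0.09 to 0.22, limma adjusted p = 0.417). Rac2 was 213, 230 and 238 TPM with DMSO and 275, 269 and 280 TPM with LPS. Every LPS column of Rac2 was above every DMSO column. With a log2 fold change of 0.27 (SE 0.06, 95% interval 0.13 to 0.42, limma adjusted p = 0.0046), Rac2 passed the p limit but not the fold limit. The columns of 5 of 6 members did not overlap between LPS and DMSO, as was also so for 68.9% of all tested genes.

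**Figure D2:**
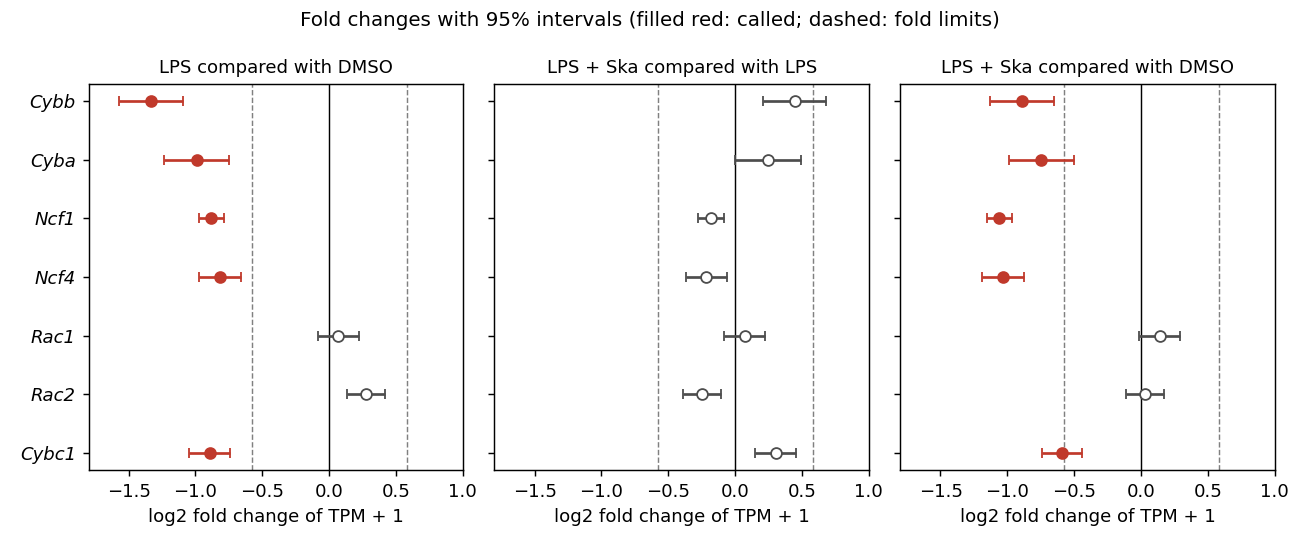
log2 fold change of TPM + 1 (x axis) with 95% intervals for the 6 subunit genes and for Cybc1 in the 3 comparisons, with filled red points for called genes and dashed lines at the fold limits. Cybb, Cyba, Ncf1 and Ncf4 lie left of the lower limit in both comparisons with DMSO, and no gene passes a limit between LPS + Ska and LPS.

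The comparison of LPS + Ska with LPS asks what skatole added in LPS-treated cells, and it shares its LPS columns with the comparison above. None of the 6 genes was called, and 9.49% of all tested genes were, in either direction. At an adjusted p below 0.05 with no fold limit, 4 of 6 passed, as did 28.6% of all tested genes. These were Cybb, which was higher, and Ncf1, Ncf4 and Rac2, which were lower with LPS + Ska. The columns of Cybb, Ncf1, Ncf4 and Rac2, 4 of 6 members, did not overlap between the groups, as was so for 51.2% of all tested genes. The median log2 fold change was -0.05 over the 6 members and -0.10 over all tested genes.

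Cybb was 182, 213 and 151 TPM with LPS + Ska, and all of these columns were above the LPS columns and below the DMSO columns. Its log2 fold change against LPS was 0.44 (SE 0.11, 95% interval 0.21 to 0.68, limma adjusted p = 0.0137), a 1.36-fold higher level. The limma adjusted p was 0.0141 with recovered values, and 0.0505 without LPS + Ska 5. Cyba was 469, 384 and 553 TPM, a range that took in the LPS columns. The log2 fold change of Cyba was 0.25 (SE 0.11, limma adjusted p = 0.122). Without LPS + Ska 6 it was 0.38 (limma adjusted p = 0.0047), and without LPS + Ska 7 it was 0.12 (limma adjusted p = 0.309). Within the LPS + Ska group, column 6 had a higher Cybb level and a lower Cyba level than column 7. The ratio of Cyba to Cybb in the deposited columns thus ran from 1.81 to 3.67. Column 5 is tied to columns 6 and 7, so this was a single contrast and not a pattern over columns.

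Ncf1 was 163, 164 and 163 TPM with LPS + Ska, below every LPS column. Its log2 fold change was -0.18 (SE 0.04, limma adjusted p = 0.0137), a small difference in a gene with little spread between columns. Ncf4 was 137, 132 and 141 TPM, also below every LPS column, with a log2 fold change of -0.22 (SE 0.07, limma adjusted p = 0.0437). Rac2 was 232, 215 and 248 TPM, below every LPS column and overlapping the DMSO columns, and its log2 fold change was -0.25 (SE 0.06, limma adjusted p = 0.0194). Rac1 was 271, 294 and 247 TPM and overlapped LPS, with a log2 fold change of 0.07 (SE 0.07, 95% interval -0.09 to 0.23, limma adjusted p = 0.477).

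Whether the 3 lower genes passed the p limit depended on how the columns were treated. With recovered values their log2 fold changes were -0.18, -0.22 and -0.25 as before, and limma adjusted p was 0.0584 for Ncf1, 0.0933 for Ncf4 and 0.0499 for Rac2. With median-ratio scaling of the columns, their log2 fold changes shrank to -0.08, -0.11 and -0.14, with limma adjusted p of 0.238, 0.339 and 0.155. That of Cybb grew to 0.55 (limma adjusted p = 0.0025). The same scaling moved the median of all tested genes from -0.10 to -0.0016 between LPS + Ska and LPS, and from -0.18 to -0.0033 between LPS + Ska and DMSO.

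**Figure D3:**
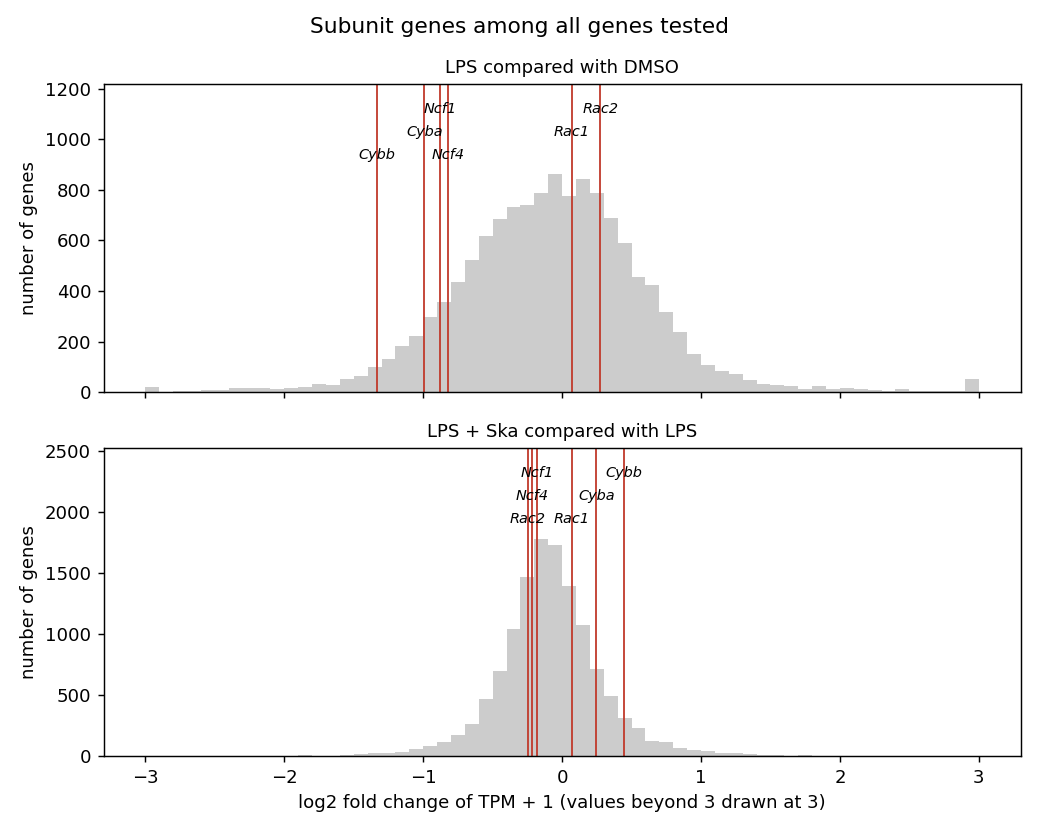
Number of tested genes (y axis) by log2 fold change of TPM + 1 (x axis, values beyond 3 drawn at 3) for LPS compared with DMSO and LPS + Ska compared with LPS, with a red line at each subunit gene. With LPS compared with DMSO, Cybb lies farthest to the left at -1.33, and with LPS + Ska compared with LPS all 6 lie between -0.25 and 0.44.

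Against DMSO, LPS + Ska (a comparison that shares columns with both above) had 4 of 6 genes called lower, and 25.3% of all tested genes were called lower. They were Cybb, Cyba, Ncf1 and Ncf4. Of the membrane subunits, Cybb fell by 0.89 (SE 0.11, limma adjusted p = 7.38e-05), or 1.85-fold. Cyba fell by 0.74 (SE 0.11, limma adjusted p = 2.69e-04), or 1.68-fold, and this call was lost with median-ratio scaling, under which its log2 fold change was -0.55. Of the cytosolic subunits, Ncf1 fell by 1.06 (SE 0.04, limma adjusted p = 1.74e-07), or 2.08-fold, and Ncf4 by 1.03 (SE 0.07, limma adjusted p = 2.1e-06), or 2.05-fold.

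Set beside the values against DMSO with LPS alone, the log2 fold changes of Cybb were -1.33 with LPS and -0.89 with LPS + Ska, and those of Cyba were -0.99 and -0.74. Those of Ncf1 were -0.88 and -1.06, and those of Ncf4 were -0.82 and -1.03. The membrane subunit genes thus had their lowest mean with LPS and the cytosolic ones with LPS + Ska, and the differences between LPS and LPS + Ska are the uncalled values given above. Rac1 and Rac2 had log2 fold changes of 0.14 (95% interval -0.02 to 0.29, limma adjusted p = 0.107) and 0.03 (95% interval -0.12 to 0.17, limma adjusted p = 0.719) between LPS + Ska and DMSO. The columns of 4 of 6 members did not overlap, compared with 64.8% of all tested genes. The median log2 fold change was -0.82 over the 6 members and -0.18 over all tested genes.

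The 6 genes summed to 2207 ± 4.13 TPM with DMSO (SD, n = 3). The sum was 1398 ± 22.9 TPM in the LPS group and 1452 ± 51.2 TPM in the LPS + Ska group. Rac1 and Rac2 made up 21.4 ± 1.09% of it with DMSO, 38.0 ± 0.586% with LPS and 34.6 ± 1.71% with LPS + Ska. The share of the membrane pair Cybb and Cyba was 50.4 ± 1.17%, 37.4 ± 0.113% and 44.7 ± 2.14% in the same order. The Rac genes thus took a larger share in every LPS and LPS + Ska column, 32.9% or more, than in any DMSO column, 22.1% or less. The ratio of Cybb to Ncf1, which was chosen after its values had been seen and was not tested, was 0.982 ± 0.0585 with DMSO, 0.714 ± 0.0215 with LPS and 1.11 ± 0.186 with LPS + Ska.

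**Figure D4:**
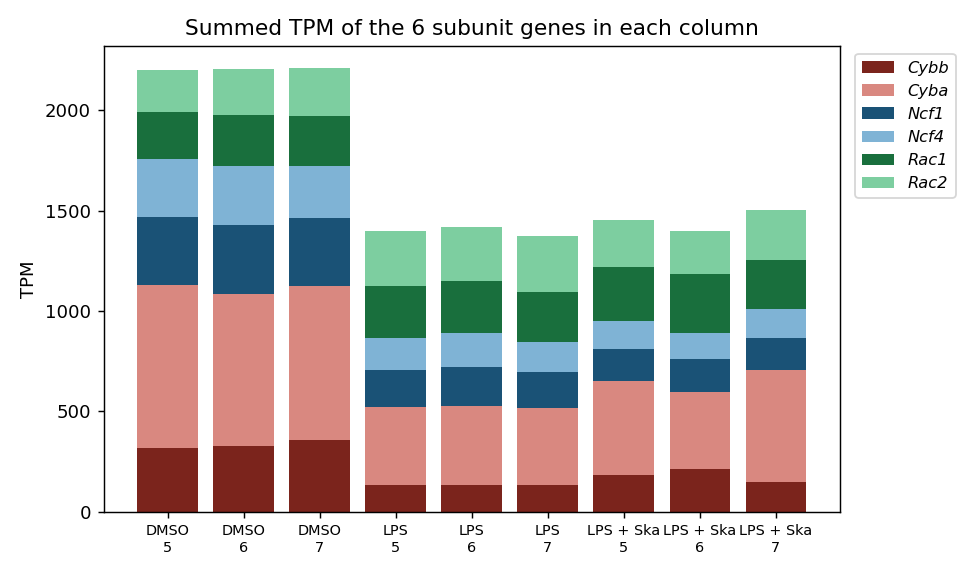
Stacked TPM (y axis, from 0) of the 6 subunit genes in each of the 9 columns, coloured by gene, with membrane subunits at the bottom, cytosolic subunits in the middle and Rac genes on top. The DMSO columns reach 2203 to 2211 TPM, the LPS columns 1375 to 1421 TPM and the LPS + Ska columns 1401 to 1504 TPM. Rac1 and Rac2 make up 20.1% to 22.1% of a DMSO column and 32.9% to 38.6% of the others.

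Partners were also compared as log2 ratios, with an exact two-sided permutation test over columns, in 9 tests of 3 ratios in 3 comparisons. With 3 columns against 3 the smallest p is 0.1, so no difference could pass a limit of 0.05. The test treats the columns as independent, which the tied columns of the LPS and LPS + Ska groups are not. Its p and the overlap of columns therefore only describe the columns as deposited. The ratio of Cybb to Cyba was lower with LPS than with DMSO by a difference of -0.34 (p = 0.1, adjusted p = 0.3, exact permutation test). The ratio of Rac2 to Rac1 was higher with LPS than with DMSO by 0.21 and lower with LPS + Ska than with LPS, by a difference of -0.32 (both p = 0.1, adjusted p = 0.3, exact permutation test). The columns did not overlap in these 3 differences. The ratio of Ncf1 to Ncf4 differed by -0.06, 0.04 and -0.03 in the 3 comparisons (p of 0.5, 0.5 and 0.8, exact permutation test).

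A list of 24 genes that help assemble or activate the oxidase had 21 tested members. In LPS compared with DMSO, 5 were called higher, 6 lower and 10 were not called, and their median log2 fold change was -0.06. Of all tested genes, 12.7% were called higher and 20.0% lower, with a median of -0.067. With median-ratio scaling the list had 6 called higher and 5 lower. Cybc1, which encodes a chaperone of the membrane flavocytochrome, was 56.7, 51.9 and 59.1 TPM with DMSO and 29.6, 29.9 and 29.3 TPM with LPS, and fell by 0.89 (SE 0.07, limma adjusted p = 5.41e-06). Prex1, which encodes a Rac exchange factor, fell by 1.03 (SE 0.10). Prkca, for a protein kinase C that can phosphorylate p47phox, rose by 2.63 (SE 0.12), from 2.13 to 18.3 TPM. Tiam1, for another Rac exchange factor, rose by 1.17 (SE 0.21), from 3.24 to 8.20 TPM.

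In LPS + Ska compared with LPS, none of these 21 genes was called higher, 4 were called lower and 17 were not called, with a median log2 fold change of -0.18. Of all tested genes, 3.35% were called higher and 6.14% lower, with a median of -0.10. Cybc1 was 36.8, 35.0 and 38.5 TPM, above every LPS column, with a log2 fold change of 0.30 (SE 0.07, limma adjusted p = 0.0103). It passed the p limit but not the fold limit, like Cybb. The 4 that fell were Tiam1 (-1.14), Vav3 (-0.91), Prkca (-0.86) and Dock2 (-0.61), which encode Rac exchange factors and, for Prkca, the kinase. At -0.51 with median-ratio scaling, Dock2 was no longer called.

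In LPS + Ska compared with DMSO, 4 of the 21 were called higher, 8 lower and 9 were not called, with a median log2 fold change of -0.35. Of all tested genes, 11.4% were called higher and 25.3% lower, with a median of -0.18. Median-ratio scaling turned that balance to 5 called higher and 4 lower. Cybc1 fell by 0.59, a call lost with median-ratio scaling at -0.40. The 4 largest called changes were those of Prkca (1.77), Prex1 (-1.02), Pik3cd (-1.01), which encodes a phosphoinositide kinase subunit of leukocytes, and Rap1b (0.93), which encodes a small GTPase.

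**Figure D5:**
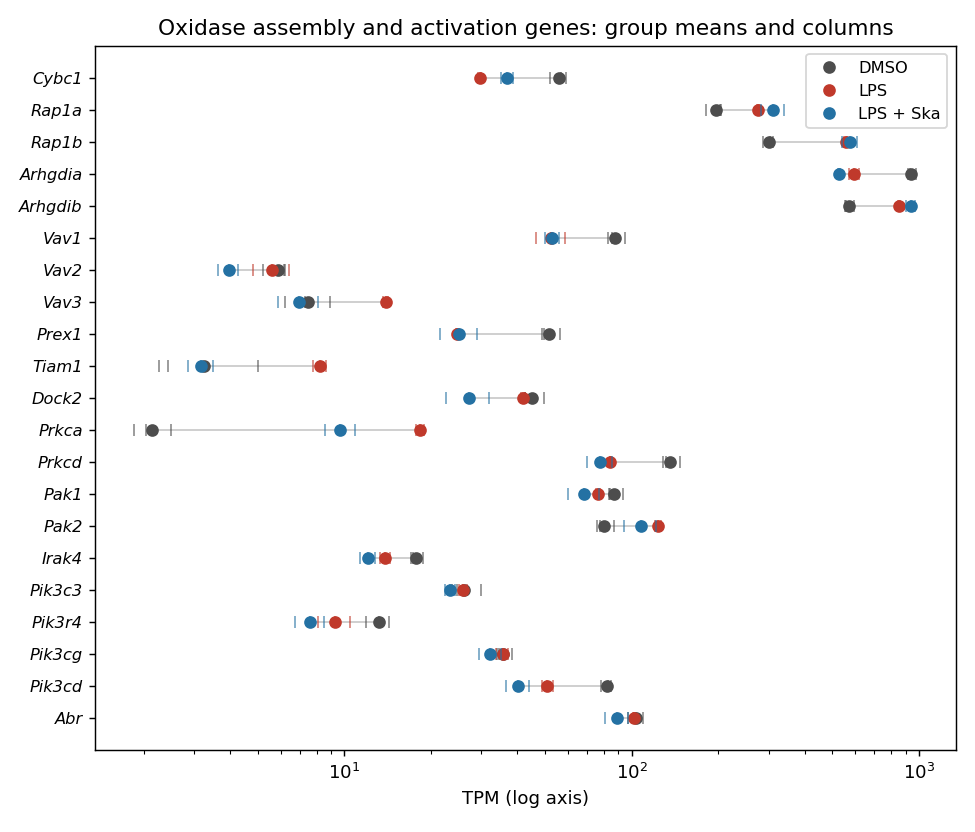
Mean TPM (x axis, log scale) of the 21 tested assembly and activation genes with DMSO, LPS and LPS + Ska, with a tick for each column. Cybc1 is lowest with LPS, Prkca and Tiam1 are highest with LPS, and Prex1 is near 25 TPM in both LPS groups against 51.6 TPM with DMSO.

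Transcripts of other oxidases of the family were at or near 0. Of 10 genes for other oxidases and their partners only Rac3, for a further Rac GTPase, was tested, at 0.83 to 4.80 TPM, and it was not called in any comparison. Nox4, Duox1, Duox2, Duoxa1, Duoxa2 and Noxa1 were listed at 0 in every column, and Nox1, Nox3 and Noxo1 reached at most 1.38, 0.14 and 1.15 TPM. With TPM alone the depth is unknown, so no upper limit could be set for those listed at 0.

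Of 6 factors known to act on promoters of subunit genes, 3 were called lower and none higher in LPS compared with DMSO, beside 20.0% lower and 12.7% higher of all tested genes. Spi1, which encodes the myeloid factor PU.1, averaged 408 ± 2.74 TPM with DMSO and 233 ± 9.18 TPM with LPS and fell by 0.81 on the log2 scale (SE 0.06, limma adjusted p = 6.75e-06). Irf8, which encodes an interferon regulatory factor of the kind whose paired motif is marked above, went from 46.3 ± 3.46 to 19.7 ± 2.42 TPM, a log2 fold change of -1.20 (SE 0.13, limma adjusted p = 4.31e-05). Rela, for the p65 chain of NF-kB, fell by 0.68. Whether any of these factors had a part in the levels of the subunit genes here was not tested. In LPS + Ska compared with LPS, none of the 6 was called and 2 passed the p limit alone, beside 9.49% and 28.6% of all tested genes. The log2 fold changes of Spi1 and Irf8 were -0.02 and -0.08 (limma adjusted p of 0.842 and 0.653). In LPS + Ska compared with DMSO, Irf8 (-1.28), Irf1 (-0.89), Spi1 (-0.83) and Rela (-0.78) fell, and the other two were not called, beside 25.3% lower of all tested genes.

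Over the 9 columns, the levels of Cybb, Cyba, Ncf1 and Ncf4 moved together, with pairwise Pearson r of log2(TPM + 1) from 0.813 to 0.990 (Ncf1 with Ncf4). These 4 were negatively correlated with Rac1 and Rac2. The genes closest in pattern, of 12819, were Tnip3 (r = 0.997) and Slc44a1 (0.996) for Cybb, Dpp3 (0.996) and Ydjc (0.994) for Cyba, and Atg9b (0.9995) and Chst12 (0.999) for Ncf1. They were Rogdi and Abhd17a (both 0.998) for Ncf4, Atg3 (0.974) and Zfp599 (0.970) for Rac1, and Nfkbib (0.985) and Ubac2 (0.984) for Rac2. These r describe 9 columns that fall into 3 groups and include tied columns, so they carry no p.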

How the data were processed

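RNA from RAW264.7 macrophages of 3 groups (DMSO, LPS and LPS + Ska, with 3 samples each) was sequenced, and the authors deposited TPM values for 55401 genes by Ensembl identifier. The submitters' processing notes name fastp 0.20.1, HISAT2 2.2.1 and StringTie 2.0 and the mm10 build. The gene annotation is not given in the sources used here. Treatment lasted 24 h by the labels and the paper's results, whereas its methods give a longer time. Sequencing depth cannot be read from TPM, so it is unknown here and counting error could not be given. Symbols came from a reference table in which 55141 identifiers matched.

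The tie among the LPS columns and among the LPS + Ska columns, given in the report, is a step not described in the sources used here. The columns were used as deposited, and the 2 recovered values per gene (column 5 plus and minus 0.5 times its difference from column 6) were an alternative. The factor of 0.5 is not given in the sources used here, so the recovered values are a reconstruction and not measured values.

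A linear model of log2(TPM + 1) over the 9 columns was fitted in limma 3.58.1 (R 4.3.3), with variances moderated along an intensity trend, for the 12819 genes with a mean of at least 1 TPM. Calls required a Benjamini-Hochberg adjusted p below 0.05, over all of these genes, together with a fold change outside the range of 0.67 to 1.5. The fit was tested on simulated data. Ratios were tested with exact permutation tests in scipy 1.17.1. Beside the 6 members, Cybc1 was named always, as were up to 4 called genes of each list with the largest change in each comparison, and the 2 genes most like each member. Some listed items are not reported here, and the counts leave them out. The members and lists were chosen with earlier results of these data known. Positions are those of GENCODE on mm10, and promoter windows those of RefSeq. Alternatives were a pseudocount of 0.1, no filter on low values, median-ratio scaling, fitting only the compared groups, dropping the intensity trend or the fold limit, recovered values, a replicate block and leaving out each column. Python 3.11.15 with matplotlib 3.10.9 drew the figures.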

Additional observations from a re-analysis of the deposited data

How the results depend on the processing

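Of 306 member fold changes under other settings, 298 kept their direction and their call. Many of the 306 could not have changed direction, because their setting left the log2 fold change itself untouched. Such settings altered only the variance estimate, the set of genes or the limit, or dropped a column outside the comparison. Cybb in LPS compared with DMSO, for example, stayed at -1.33 under each of them. For these settings only the call and its p were tested. Of the 306, 25 crossed the adjusted p limit, 21 of them in LPS + Ska compared with LPS. Without a fold limit, 5 more passed, which made 4 members called in LPS + Ska compared with LPS in place of 0, and the calls over all genes rose from 1630 higher and 2559 lower to 3354 and 4380 (LPS compared with DMSO), from 429 and 787 to 1139 and 2524 (LPS + Ska compared with LPS) and from 1457 and 3243 to 2915 and 5201 (LPS + Ska compared with DMSO). Median-ratio scaling ended the call of Cyba in LPS + Ska compared with DMSO (-0.55, limma adjusted p = 0.0043), raised Rac1 there from 0.14 to 0.33 (limma adjusted p = 7.9e-04, inside the fold limit) and moved the share of higher genes among those called from 35.3% to 52.4% (LPS + Ska compared with LPS), from 31.0% to 49.6% (LPS + Ska compared with DMSO) and from 38.9% to 48.8% (LPS compared with DMSO). That scaling also raised Rac2 in LPS + Ska compared with DMSO from 0.03 to 0.22 (limma adjusted p = 0.019). Rac1 in LPS compared with DMSO went from 0.07 to 0.16 with it (limma adjusted p = 0.0358). Both stayed inside the fold limit. With 1 column left out, Rac2 in LPS + Ska compared with DMSO ran from -0.022 (without LPS + Ska 7) to 0.079, and was -0.017 without DMSO 5. The log2 ratio differences in the same fits changed sign for Cybb/Cyba in LPS + Ska compared with LPS (-0.057 to 0.452, negative without LPS + Ska 6) and with DMSO (-0.401 to 0.109, positive without LPS + Ska 7). In LPS + Ska compared with DMSO they also did so for Ncf1/Ncf4 (-0.062 to 0.029, positive without DMSO 7 and, at 0.00066, without LPS + Ska 7) and for Rac2/Rac1 (-0.223 to 0.0014, positive without LPS + Ska 6). The other 76 of 81 ratio values kept their direction, and the cause of these changes was not tested. Those 76 include the values with a replicate block, which cannot change a ratio difference. With a replicate block, 4, 0 and 4 members were called in the 3 comparisons, as without it, and limma adjusted p for Ncf4 in LPS + Ska compared with LPS was 0.0589. Deviations of same-numbered columns correlated at -0.032 to 0.0801 between DMSO and the other groups and at 0.128 to 0.384 between LPS and LPS + Ska, whose columns are tied in the same form, so the samples were not treated as paired by number.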
